A study of Mus musculus with 47 samples.

Results

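Srebf1, Srebf2, Mlxipl, Fasn, Acaca, Acly, Scd1 and Elovl6 are 8 genes of hepatic fatty acid and cholesterol synthesis, taken by name out of 21418 autosomal protein-coding genes. Their histone marks were read from 12 lists of ChIP-seq peaks in mouse liver. Peaks of H3K27ac, an acetyl mark of active promoters and enhancers, and of H3K4me1, a methyl mark of enhancers, were counted when they lay within 10 kb of a gene's span. H3K27me3, the repressive mark that Ezh1 and Ezh2 place, was measured as the percent of the span inside called regions.

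The groups were liver of 7 week old male and female mice of 2 genotypes. Control mice carried floxed Ezh2 (Ezh2 f/f). Mice called E1/E2-KO here and DKO in the sample records were Ezh1-/- with the same floxed Ezh2 and the Alb-Cre transgene, so that Ezh1 was absent from every cell and Ezh2 was deleted in hepatocytes alone. Non-parenchymal cells of E1/E2-KO liver therefore kept Ezh2. Each group had 4 livers per mark, except E1/E2-KO female H3K4me1, where the records list 3. The study's methods give the same number of livers for every group, so how many stand behind that list is unclear. The reads of a group were joined before peaks were called. With 1 list per mark and group, the spread between livers is not known and differences between groups are given without a test. In whole liver, a mark present in fewer cells and a weaker mark in every cell cannot be told apart.

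The lists held 29359 to 55930 H3K27ac peaks, 51417 to 69797 H3K4me1 peaks and 15603 to 19796 H3K27me3 regions. Control males had the shortest H3K27ac list, and the E1/E2-KO male list held 1.91 times as many peaks. In females this ratio was 1.03. The H3K4me1 lists held 69797 peaks in control males, 67913 in E1/E2-KO males, 54798 in control females and 51417 in E1/E2-KO females. H3K27me3 regions covered 766 Mb in control males, 750 Mb in E1/E2-KO males, 728 Mb in control females and 707 Mb in E1/E2-KO females. The depth behind the lists is unknown. Of 5 hepatocyte markers, Alb, Ttr and Hnf4a had H3K27ac at the 5′ end in all 4 lists and Apoa1 in all but control males, while Serpina1a, one of a family of near-identical genes, had none. None of 3 neuronal markers had it in any list.

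De novo lipogenesis turns citrate from mitochondria into fatty acids in the hepatocyte cytosol. The transcription factor SREBP-1c, made from Srebf1, carries the insulin signal to these genes, and ChREBP, made from Mlxipl, carries the carbohydrate signal. SREBP-2, made from Srebf2, drives cholesterol synthesis when sterols are scarce. SREBPs bind sterol regulatory elements (SREs) in promoters, commonly beside sites for NF-Y (CCAAT) and Sp1 (GC boxes), and ChREBP binds paired E-boxes.

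The promoters of the transcription factor genes and of Fasn are shown as those of the regulators and of a central enzyme, and H3K27ac lay within 1 kb of each of these starts in all 4 lists. The same held for the Acly and Elovl6 windows, which are not printed. The promoter set used here, taken from RefSeq (build GRCm38.p6), held entries for 7 of the 8 genes. Each of the 10 entries matched NCBIM37 (mm9) exactly and once. The set held no entry for Scd1, and whether RefSeq itself has one was not checked. The 250 bases before the start are given 5′ to 3′ with mm9 coordinates in the text that follows them. Capitals mark TCACCC (the core of an SRE), CACGTG (an E-box), CCAAT or GGGCGG (a GC box) on either strand, and neighbouring motifs may overlap. Positions are those of a motif's first base on the strand shown, with -1 the base before the start.
Srebf1 (SREBP-1c type start): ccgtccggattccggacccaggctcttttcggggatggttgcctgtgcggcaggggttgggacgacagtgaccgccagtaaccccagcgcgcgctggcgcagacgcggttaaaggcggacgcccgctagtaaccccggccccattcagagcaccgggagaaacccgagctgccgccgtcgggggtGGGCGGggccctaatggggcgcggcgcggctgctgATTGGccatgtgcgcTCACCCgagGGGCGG
Srebf2: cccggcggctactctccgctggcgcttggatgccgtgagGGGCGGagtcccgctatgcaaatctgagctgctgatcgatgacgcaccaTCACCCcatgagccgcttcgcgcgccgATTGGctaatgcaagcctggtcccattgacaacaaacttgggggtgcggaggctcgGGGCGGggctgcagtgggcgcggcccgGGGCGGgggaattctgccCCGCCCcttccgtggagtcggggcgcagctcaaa
Mlxipl: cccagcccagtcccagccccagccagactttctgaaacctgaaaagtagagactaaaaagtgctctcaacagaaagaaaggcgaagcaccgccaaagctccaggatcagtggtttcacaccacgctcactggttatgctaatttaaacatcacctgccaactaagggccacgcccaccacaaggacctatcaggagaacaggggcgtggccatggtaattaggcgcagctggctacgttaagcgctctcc
Fasn: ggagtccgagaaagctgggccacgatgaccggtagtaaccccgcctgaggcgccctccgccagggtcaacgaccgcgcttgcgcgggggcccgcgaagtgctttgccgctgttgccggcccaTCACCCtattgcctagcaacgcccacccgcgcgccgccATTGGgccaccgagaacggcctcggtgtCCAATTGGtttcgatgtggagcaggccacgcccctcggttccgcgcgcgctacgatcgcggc

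The Srebf1 window lies on the minus strand at chr11:60023974-60024223, before an internal start 12.1 kb from the gene's 5′ end. It holds TCACCC at -15, CCAAT on the other strand at -30 and GGGCGG at -65 and -6. The Srebf2 window (chr15:81977449-81977698, plus strand) holds TCACCC at -162, CCAAT on the other strand at -135 and 4 GC boxes. The Fasn window (chr11:120685862-120686111, minus strand), before a RefSeq start that lies upstream of the 5′ end used elsewhere, holds TCACCC at -128 and CCAAT at -90, -62 and -59, of which the first and last are on the other strand and the 2 nearer to the start overlap. The Mlxipl window (chr5:135582511-135582760, plus strand) has none of these letters. TCACCC was found in 3 of the 10 windows of the genes, all of them printed, and in 13.8% of all 31396 autosomal windows of that length. CCAAT was found in 5 of 10 against 33.7%, GGGCGG in 5 of 10 against 33%, and CACGTG in 1 of 10 against 6.02%. These matches are a description of letters and not of binding.

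H3K27me3 was listed over few of the 8 genes in control liver and over more of them in E1/E2-KO males. It overlapped 1 of the 8 in control males, 6 in E1/E2-KO males, 2 in control females and 2 in E1/E2-KO females. With 10 kb added on each side, as for the other marks, these counts were 4, 7, 4 and 3, and with the widest 50% of the regions they were 1, 3, 1 and 1. Over all autosomal protein-coding genes, with the span alone and all regions, the shares were 44.1%, 49%, 41.3% and 39.5% in the same order. They compare with the first set of counts only. Shares of all genes with 10 kb added or with the widest regions are not given here. Coverage was higher by 25 percentage points or more in E1/E2-KO than in control males at Mlxipl, Scd1 and Elovl6, that is 3 of 8 genes against 10.3% of all genes. In females it was higher by that much at Mlxipl alone, 1 of 8 against 6.56%. Among 9624 genes with H3K27ac at the 5′ end in all 4 lists, a property all 8 share, these shares were 13.7% in males and 7% in females. No member had 25% coverage in a control list, so none could fall by 25 points. With 8 genes these counts are a description, and the difference from all genes was not tested.

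Mlxipl (chr5:135582761-135614254, plus strand, 31.5 kb) had the same change in both sexes. Its coverage was 0% in control males, 100% in E1/E2-KO males, 0% in control females and 100% in E1/E2-KO females. The groups of a genotype thus matched and the genotypes did not overlap. In E1/E2-KO males the gene lay in a region of 81.2 kb (chr5:135542001-135623200), and in E1/E2-KO females in one of 75.2 kb (chr5:135546401-135621600). Each of these also overlapped the neighbouring gene Vps37d, as did the nearest control male region. In control males the nearest region, 29.6 kb wide, ended upstream at a distance of 8760 bases, and in control females it was 6 kb wide and lay 1346 bases downstream. All 4 H3K27ac peaks of E1/E2-KO males and all 5 of E1/E2-KO females near Mlxipl lay inside the H3K27me3 region of the same list. The 250 bases of the Mlxipl promoter printed above were wholly inside H3K27me3 in both E1/E2-KO lists and outside it in both control lists. RefSeq holds a second Mlxipl start 17 kb further upstream, outside the span used here, with its window at chr5:135565510-135565759. That window, the one with CACGTG, was wholly inside H3K27me3 in all 4 lists, so the absence from control liver holds for the downstream promoter and the span.

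**Figure D1:**
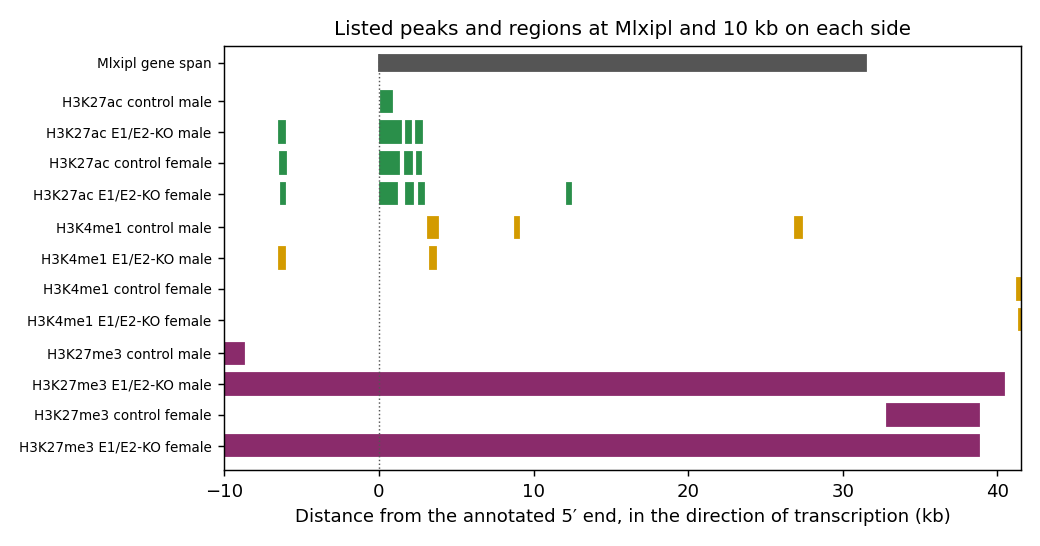
Peaks and regions listed at Mlxipl, by mark and group (rows), against distance from the annotated 5′ end in kb (x axis). The gray bar is the gene span. H3K27me3 spans the gene in both E1/E2-KO rows, where H3K27ac is listed at the 5′ end as well.

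Scd1, the desaturase that makes oleate and palmitoleate, lies at chr19:44468941-44482199 on the minus strand. Its coverage was 0% in control males, 100% in E1/E2-KO males, 0% in control females and 0% in E1/E2-KO females. The E1/E2-KO male list alone held a region over it, of 20.8 kb (chr19:44464401-44485200), and Scd1 was the only protein-coding gene inside. Its surroundings carried the mark in every list, since the span with 50 kb on each side was covered to 71.4%, 76.3%, 73% and 54.8% in the same order. For Mlxipl these values were 22.5%, 61.8%, 21.9% and 57.2%. The distance from Scd1 to the nearest region was 6540 bases in control males, 7001 bases in control females and 16540 bases in E1/E2-KO females. Of the E1/E2-KO male H3K27ac peaks near Scd1, 4 lay inside the H3K27me3 region, and 2 of these lay within 1 kb of the 5′ end. Elovl6 (chr3:129235304-129341413, plus strand), which lengthens palmitate to stearate, was 0% covered in both control lists, 31.2% in E1/E2-KO males and 0% in E1/E2-KO females. The 2 E1/E2-KO male regions at Elovl6 covered its 5′ end and, from 68.7 kb onwards, an internal stretch. In E1/E2-KO females the nearest region lay 4187 bases past the gene.

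Fasn (chr11:120667254-120685492, minus strand), the fatty acid synthase gene, lay just under the 25-point limit. Its coverage was 23.5% in E1/E2-KO males and 0% in the other 3 lists, and the region of 14.8 kb spanned its 5′ end. Acaca (chr11:83943174-84215153, plus strand), which encodes the carboxylase that makes malonyl-CoA, had 0% in control males, 11.3% in E1/E2-KO males, 5.29% in control females and 0% in E1/E2-KO females. The E1/E2-KO male regions at Acaca lay over its 5′ end and over a second promoter 50.1 kb inside the gene, and the control female region ran from the 5′ end inwards for 14.4 kb. Srebf2 (chr15:81977696-82035806, plus strand) had 5.17%, 17.6%, 2.42% and 3.8% in that order, always from a region that reached into its 3′ end. Its 5′ end was in no region of any list. Srebf1 (chr11:60012591-60036083, minus strand) and Acly (chr11:100337667-100389314, minus strand), the gene of ATP-citrate lyase, were at 0% in all 4 lists. In all, 8 E1/E2-KO male regions of 14.8 to 81.2 kb overlapped 6 of the genes, and 6 of these regions had no control male region under them, against 17.4% of the 9246 E1/E2-KO male regions that overlap any of the genes tested.

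**Figure D2:**
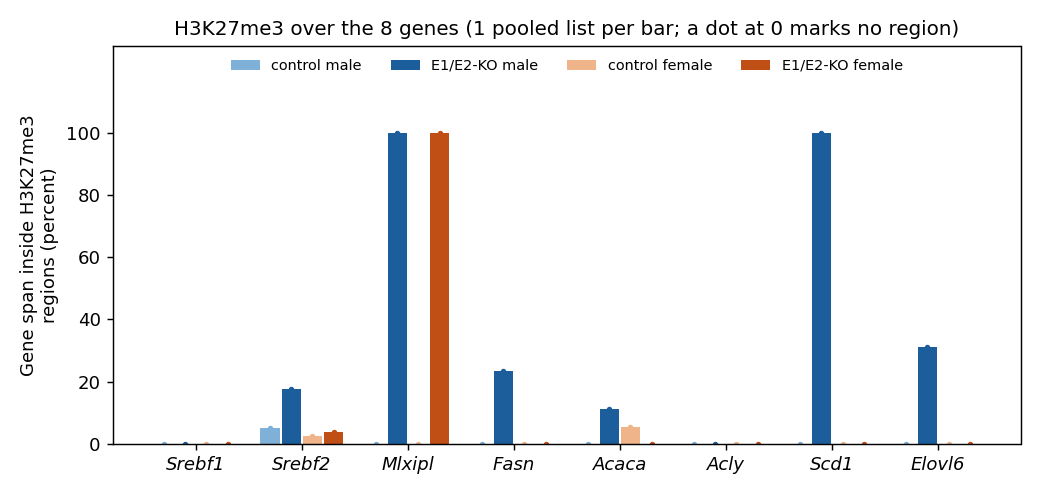
Percent of each gene's span inside H3K27me3 regions (y axis), 1 bar per pooled list, with a dot at 0 where no region was listed. E1/E2-KO males have 100% at Mlxipl and Scd1 and 31.2% at Elovl6, and E1/E2-KO females 100% at Mlxipl.

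H3K27ac and H3K27me3 were listed over the same ground more often in E1/E2-KO males. Of the H3K27ac peaks near the 8 genes, 3 of 41 in control males overlapped an H3K27me3 region of the same group (7.32%, 95% Wilson interval 2.52 to 19.4%). In E1/E2-KO males this was 25 of 71 (35.2%, 25.1 to 46.8%), in control females 5 of 65 (7.69%, 3.33 to 16.8%) and in E1/E2-KO females 9 of 71 (12.7%, 6.81 to 22.4%). Near all autosomal genes the shares were 14.8%, 31.8%, 16.5% and 20.1%. The higher share in E1/E2-KO males was thus seen near all autosomal genes as well. Intervals cover counting error only and take neighbouring peaks as independent.

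Of 5 hepatocyte markers, Hnf4a and Apoa1 had higher H3K27me3 coverage in E1/E2-KO liver of both sexes, as Mlxipl did. H3K27me3 coverage of Hnf4a was 0%, 89.1%, 0% and 71%, and that of Apoa1 0%, 100%, 0% and 50.3%, in control males, E1/E2-KO males, control females and E1/E2-KO females. These 2 of 5 passed 25 points in each sex, where 10.3% of all genes did in males and 6.56% in females. Ttr and Serpina1a were at 0% in all 4 lists, and Alb was at 2.73% in E1/E2-KO females and 0% in the others. Of 3 endothelial markers 2 were lower by that much in each sex, Pecam1 with 100% and 0% in males and 87.6% and 0% in females, and Stab2 with 87.3% and 0% and with 64.2% and 0%, where 6.29% of all genes were lower in males and 7.62% in females. Of 3 macrophage markers 1 was lower in males. None of the 3 stellate markers changed by 25 points, and of 3 cholangiocyte markers 1 was higher in females. In control males, E1/E2-KO males, control females and E1/E2-KO females, H3K27ac stood at the 5′ end of 0, 1, 1 and 2 of the endothelial markers, of 0, 0, 1 and 0 of the macrophage markers, of 0, 0, 1 and 1 of the stellate markers and of 1 of 3 cholangiocyte markers in each list. The part of cell composition in the values of the 8 genes was not tested.

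H3K27ac was present at the 5′ end of all 8 genes in all 4 lists, within 1 kb. Over all genes this share was 45.6% in control males, 52.6% in E1/E2-KO males, 51.6% in control females and 52.2% in E1/E2-KO females. Most of these peaks lay beside the starts and not over them. Merged over the 4 lists, those at Srebf2 were centred 777 bases before and 539 bases after the 5′ end, at Fasn 721 before and 613 after, and at Acly 529 before and 575 after, and all 6 of these were in every list. The widths at Mlxipl were 715 bases in control males, 1312 in E1/E2-KO males, 1226 in control females and 1102 in E1/E2-KO females. At Scd1 the control male list had a single peak of 311 bases at the 5′ end, after the start. The other 3 lists also had a peak centred 465 to 628 bases before it.

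Around the genes, H3K27ac peaks were more numerous in E1/E2-KO than in control males, and the number differed less between the genotypes in females. Summed over the 8 genes there were 41 peaks in control males, 71 in E1/E2-KO males, 65 in control females and 71 in E1/E2-KO females. The ratio of E1/E2-KO to control was 1.73 in males and 1.09 in females, beside 1.91 and 1.03 for the whole lists. In bases covered the ratios were 1.86 and 0.88, beside 1.86 and 0.847. The ratios near the genes and over the whole lists were thus close. The windows of Srebf1, Fasn, Acaca and Acly also hold starts of other protein-coding genes (Tom1l2, Dus1l, Klhl11 and, at Acaca, Tada2a, Gm11437 and Gm17722), whose peaks are counted too. Tada2a starts head to head with Acaca, so the peak at that 5′ end cannot be assigned to either gene. All 8 genes had more bases under H3K27ac in E1/E2-KO males than in control males, and 3 of 8 in females. Among all genes with an H3K27ac peak in either list of the sex, 89.6% had more bases in E1/E2-KO males and 26.9% in E1/E2-KO females.

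**Figure D3:**
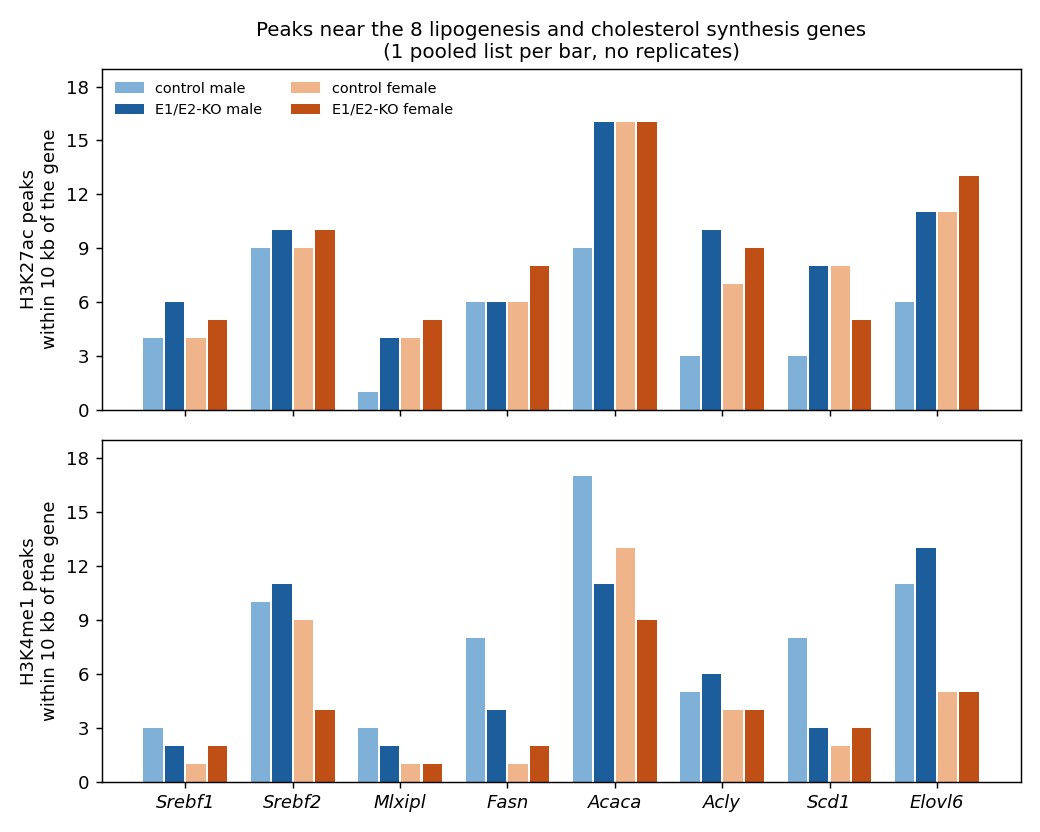
Number of H3K27ac (top) and H3K4me1 (bottom) peaks within 10 kb of each gene (y axis), 1 bar per pooled list. For H3K27ac the control male bar is below the other 3 at Mlxipl, Acaca, Acly, Scd1 and Elovl6, and at Acaca the other 3 are level at 16.

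Every one of the 41 control male H3K27ac peaks near the genes was overlapped by an E1/E2-KO male peak by at least 1 bp (100%, Wilson interval 91.4 to 100%), against 91.2% near all genes and 92.1% near genes with H3K27ac at the 5′ end in all lists. No gene lost a peak in males, where 9.81% of all genes did. Of the E1/E2-KO male peaks, 32 of 71 were new (45.1%, 34 to 56.6%), against 51.8% and 46% near the same sets of genes. New peaks were found at 7 of 8 genes, against 48.6% of all genes. In females 54 of 65 control peaks were kept (83.1%, 72.2 to 90.3%), against 73.2% and 75%. Of the E1/E2-KO female peaks 13 of 71 were new (18.3%, 11 to 28.8%), against 22.9% and 19.2%. Within 10 kb of the 5′ end alone this was 1 of 24 (4.17%). Lost and new peaks occurred in females at 5 and 5 of 8 genes, against 32.6% and 29.5% of all genes. The genes have a median span of 41.6 kb, against 15.5 kb for all genes, so their windows are longer and hold more peaks. When the 2 male lists were cut to equal numbers of their widest peaks, 19.4% of the E1/E2-KO male peaks were new and 78% of the control male peaks were kept.

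**Figure D4:**
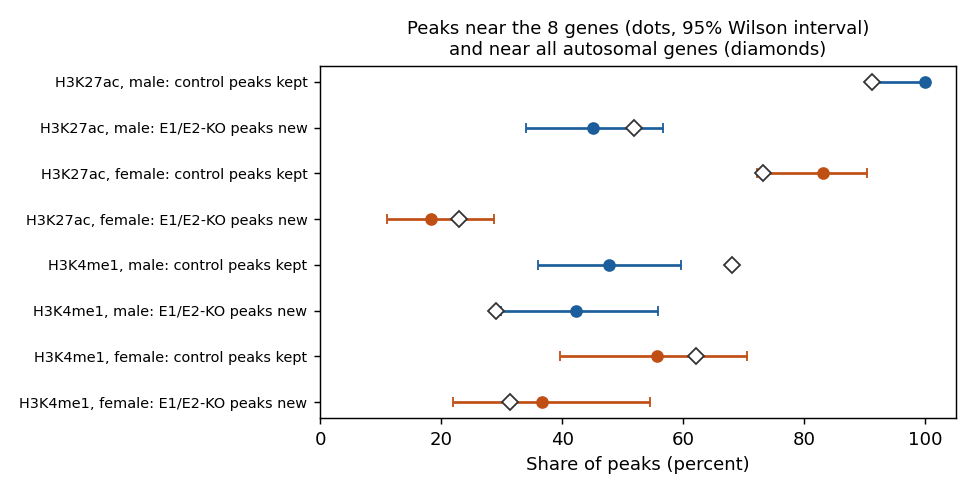
Share of control peaks kept and of E1/E2-KO peaks new (x axis, percent) near the 8 genes, as dots with 95% Wilson intervals, and near all autosomal protein-coding genes, as diamonds. Blue is male and orange is female. Control male H3K4me1 peaks kept (47.7%) is the row where dot and diamond (68.1%) lie furthest apart.

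Merged over the 4 lists, the H3K27ac peaks formed 82 loci, of which 45 were intronic, 16 overlapped an exon, 12 were upstream and 9 downstream of the gene. A peak was present in all 4 lists at 34 of the 82 (41.5%, Wilson interval 31.4 to 52.3%), against 32.7% of loci near all genes. At 13 (15.9%, 9.51 to 25.3%) a peak was missing in control males alone, against 13.1%. Of the 45 loci without a control male peak, 27 had one in control females. Only 4 loci (4.88%, 1.91 to 11.9%) had a peak in both E1/E2-KO lists and neither control list, 1 at Acaca, 1 at Elovl6 and 2 at Acly, against 5.39% near all genes. None had a peak in both control lists and neither E1/E2-KO list (0 to 4.48%), against 0.642%. Both shares were close to those near all genes.

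The 4 genotype loci were all within genes. That of Acaca was intronic, 35 kb from the 5′ end and 417 bases wide (chr11:83977924-83978340), and that of Elovl6 was intronic at 61.1 kb (chr3:129296171-129296667). The Acly loci were an intronic one at 12.3 kb (chr11:100376788-100377182) and one over an exon at 23.1 kb (chr11:100366048-100366367). The Acly loci were 395 and 320 bases wide.

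Srebf1 had 4 H3K27ac peaks in control males, 6 in E1/E2-KO males, 4 in control females and 5 in E1/E2-KO females. Its outermost annotated transcript does not code for protein. H3K27ac flanked the internal, SREBP-1c type start in every list. The nearest peak was 185, 144, 139 and 151 bases away in that order, with loci on both sides at 11.6 and 13.2 kb from the 5′ end. The window printed for this start was bare of H3K27ac in 3 lists and held 13 bases of a peak in E1/E2-KO females. The start used by longer protein-coding transcripts, 1.98 kb from the 5′ end, had H3K27ac within 1 kb in E1/E2-KO males, control females and E1/E2-KO females and not in control males. H3K27me3 was not listed at any of these starts.

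Srebf2 had 9, 10, 9 and 10 H3K27ac peaks in control males, E1/E2-KO males, control females and E1/E2-KO females, and 7 of its 9 loci were in all 4 lists. The bases covered differed more, with 4272, 6448, 7135 and 5140, and the ratio of E1/E2-KO to control was 1.51 in males and 0.72 in females. Mlxipl had 1, 4, 4 and 5 peaks in the same order. The control male list stood apart there, since 3 of the 5 Mlxipl loci were missing from it alone. One of the 3 lies 6.25 kb upstream, outside the annotated span but downstream of the second RefSeq start, and the other 2 are in the first 3 kb of the gene. The 283 bases of the upstream locus shared by its 3 peaks (chr5:135576411-135576693, plus strand, from NCBIM37) are shown because the E1/E2-KO lists and the control female list hold H3K27ac there and the control male list does not. None of the 4 motifs occurs in them, so no base is in capitals.
Mlxipl upstream peak: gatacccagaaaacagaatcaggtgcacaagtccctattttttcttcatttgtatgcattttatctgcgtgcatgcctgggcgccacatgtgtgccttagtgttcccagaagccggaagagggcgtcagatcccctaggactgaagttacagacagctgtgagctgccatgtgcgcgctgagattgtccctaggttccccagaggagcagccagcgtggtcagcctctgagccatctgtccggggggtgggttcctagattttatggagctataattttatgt

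Among the enzymes, Acly, at the entry of the pathway, had 3 H3K27ac peaks in control males, 10 in E1/E2-KO males, 7 in control females and 9 in E1/E2-KO females. Its E1/E2-KO counts exceeded the control counts in both sexes, as did those of Elovl6, Srebf1, Srebf2 and Mlxipl. The share of all genes with such counts is not given here. Acaca had 9, 16, 16 and 16 and Elovl6 6, 11, 11 and 13, with control males below the other lists at both. A second Acaca promoter, 50.1 kb from the 5′ end, had H3K27ac within 1 kb in all 4 lists, with 1391, 1555, 2004 and 1570 bases covered. Fasn had 6, 6, 6 and 8, and 6 of its 8 loci were in all 4 lists. It was the member with no new or lost H3K27ac peak in males. The 2 Fasn loci not shared by every list were E1/E2-KO female peaks of 232 and 477 bases. Scd1 had 3, 8, 8 and 5, so that E1/E2-KO was above control in males and below it in females. The 3 peaks lost at Scd1 in females were 207, 504 and 543 bases wide.

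**Figure D5:**
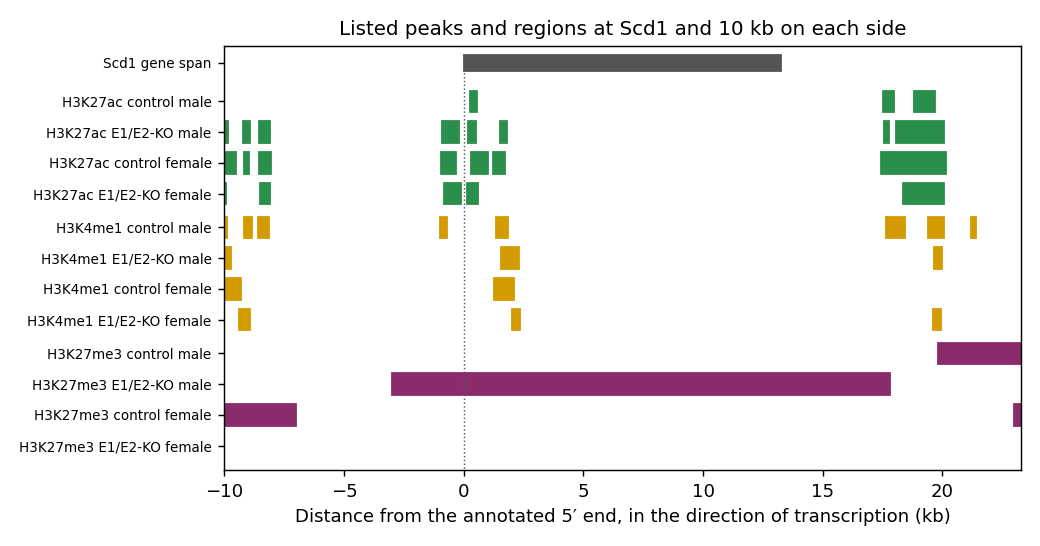
Peaks and regions listed at Scd1, by mark and group (rows), against distance from the annotated 5′ end in kb (x axis). The gray bar is the gene span. The E1/E2-KO male row is the one with H3K27me3 over the gene, and the control male H3K27ac row has a single peak at the 5′ end.

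Summed over the genes, H3K4me1 peaks were fewer in E1/E2-KO than in control lists, but single genes went either way. There were 65 in control males, 52 in E1/E2-KO males, 36 in control females and 30 in E1/E2-KO females. The ratios of E1/E2-KO to control were 0.8 and 0.833, beside 0.973 and 0.938 for the whole lists. Peaks were fewer in E1/E2-KO males at 5 genes and more at 3. In females they were fewer at 2, Srebf2 (9 and 4) and Acaca (13 and 9), equal at 3 and more at 3. In bases they were 0.808 and 0.745, beside 0.975 and 0.861. Fewer bases were covered in E1/E2-KO at 7 of 8 genes in males, Elovl6 being the exception, and at 5 of 8 in females. Among all genes with an H3K4me1 peak in either list of the sex, these shares were 52.8% and 65%.

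In males 31 of 65 control H3K4me1 peaks were kept (47.7%, Wilson interval 36 to 59.6%), against 68.1% near all genes and 66.8% near genes with H3K27ac at the 5′ end in all lists. New peaks made up 22 of 52 in E1/E2-KO males (42.3%, 29.9 to 55.8%), against 29.1% and 26.6%. In females 20 of 36 were kept (55.6%, 39.6 to 70.5%), against 62.1% and 60.7%, and 11 of 30 were new (36.7%, 21.9 to 54.5%), against 31.3% and 30.1%. All 8 genes lost an H3K4me1 peak in males and 7 had a new one, against 46.3% and 45.5% of all genes. In females 4 lost and 6 gained a peak, against 47.2% and 40.6%. As for H3K27ac, the windows of the 8 genes are longer and hold more peaks, so these counts of genes are not like for like. In males the share kept near these genes was below that near all genes. The 65 control male peaks are clustered, with 17 at Acaca and 11 at Elovl6, so the interval is too narrow, and the difference was not tested.

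The H3K4me1 loci varied more than those of H3K27ac. Of 95 loci, 53 were in 1 list only (55.8%, Wilson interval 45.8 to 65.4%), against 37% near all genes. Control males alone held 29 of them (30.5% of the loci, against 13.6%) and E1/E2-KO males alone 16 (16.8%, against 12.2%). All 4 lists shared 18 (18.9%, 12.3 to 28%), against 28.6% near all genes. None was missing from control males alone (0 to 3.89%), against 1.93%. A peak in both E1/E2-KO lists and neither control list was found at 4 (4.21%, 1.65 to 10.3%), 2 at Acly and 2 at Elovl6, against 2.97%. The reverse was found at 2 (2.11%, 0.579 to 7.35%), 1 at Acaca and 1 at Elovl6, against 3.76%.

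At the 5′ end, H3K4me1 was within 1 kb of 4 of the 8 genes in control males, 2 in E1/E2-KO males, 1 in control females and 2 in E1/E2-KO females. Over all genes this was 48%, 46.8%, 40.8% and 37.2%. Acaca was the member with it in all 4 lists. Srebf2, Scd1 and Elovl6 had it in control males alone, Fasn in E1/E2-KO males alone and Srebf1 in E1/E2-KO females alone. At Fasn this rests on the 1 kb limit, since the same peak was in both male lists, with its edge 926 bases from the 5′ end in E1/E2-KO males and 1001 in control males. When the lists were trimmed to their widest peaks at equal length, control males had 2 genes with it, as did E1/E2-KO males, and within 1 kb of any transcript start the counts were 7, 3, 2 and 2. Over the 16 groups of protein-coding starts of the 8 genes, 11 had an H3K4me1 peak within 1 kb in control males, against 3, 2 and 3 in E1/E2-KO males, control females and E1/E2-KO females. Over the 28726 such groups of all genes the shares were 42.7%, 42.1%, 36.4% and 33.1%. For H3K27ac the numbers were 9, 10, 12 and 12 of 16, against 38.2%, 45.3%, 44.3% and 44.8%. The groups of starts of 1 gene can share a peak and are not independent.

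The single genes differed in which list was low in H3K4me1. Acaca had 17 peaks in control males, 11 in E1/E2-KO males, 13 in control females and 9 in E1/E2-KO females, fewer in E1/E2-KO in both sexes. Fasn had 8, 4, 1 and 2 and Scd1 8, 3, 2 and 3, so the male control list was above the other 3 at both. Srebf2 had 10, 11, 9 and 4, and there the E1/E2-KO female list, of the group with 3 livers in the records, was the low one. Elovl6 had 11, 13, 5 and 5, more in both male lists than in both female lists. The male H3K4me1 lists as a whole were also longer than the female ones. Acly had 5, 6, 4 and 4, with 2171, 2102, 1610 and 2138 bases covered. Srebf1 (3, 2, 1 and 2) and Mlxipl (3, 2, 1 and 1) had few peaks in any list. The 1 H3K4me1 peak that all lists shared at Srebf1 was 11.3 kb from the 5′ end, next to the SREBP-1c type start.

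Other genes of these pathways were read in the same way, 47 autosomal genes of 52 listed. Mid1ip1, Nsdhl, Ebp and Mbtps2 are X-linked and Hmgcs1 was not matched by name, and these 5 were not analysed here. H3K27me3 coverage was higher by 25 points or more in E1/E2-KO males at 10 of the 47 and lower at 1. In females it was higher at 6 and lower at none. Of all genes 10.3% were higher and 6.29% lower in males, and 6.56% and 7.62% in females. Of 18 other genes of fatty acid and triglyceride synthesis, 5 were higher in males and 2 in females. Of 17 cholesterol synthesis enzymes these numbers were 2 and 2, with 1 lower in males, and of 12 regulators of SREBP and ChREBP they were 3 and 2. H3K27ac stood at the 5′ end of 43, 44, 45 and 44 of the 47 genes in control males, E1/E2-KO males, control females and E1/E2-KO females. Over all genes these shares were 45.6%, 52.6%, 51.6% and 52.2%.

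Among the longest genes that changed, Dgat2, which makes the last bond of triglycerides, resembled Mlxipl with 0%, 100%, 0% and 33.1% H3K27me3 in control males, E1/E2-KO males, control females and E1/E2-KO females. Acss2, Agpat2 and Scap passed 25 points in males alone. Acss2, which makes acetyl-CoA from acetate, had 0%, 37.1%, 0% and 15.8%. Agpat2, an acyltransferase of triglyceride synthesis, had 0%, 64.8%, 0% and 10%. Scap, the escort of SREBPs to the Golgi, had 0%, 41%, 0% and 0%.

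In cholesterol synthesis, mevalonate kinase (Mvk) had 0%, 62.5%, 23.3% and 15.9% and squalene epoxidase (Sqle) had 8.49%, 40.8%, 0% and 0%. Mvd was the 1 gene of the lists that was lower by 25 points or more, with 86.5%, 0%, 0% and 0%. It is named here after its value was seen. Changes of H3K27ac at the 5′ end between genotypes of a sex were found at 2 of the 47 genes and none of the 8, against 9.94% of all genes. Scd2, a second desaturase, lacked it in control males alone and was 100% covered by H3K27me3 in all 4 lists. Insig2, which holds SREBPs in the endoplasmic reticulum, had it in control females alone.

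Among the listed pathway genes, the peak counts most like those of the 8 genes were those of Acss2 and Fdft1, by the sum of absolute differences of 8 counts (H3K27ac and H3K4me1 in 4 lists) from the medians of the members. The sums were 8.5 and 9.5 peaks. The medians of the members were 5, 9, 7.5 and 8.5 H3K27ac peaks and 8, 5, 3 and 3.5 H3K4me1 peaks in control males, E1/E2-KO males, control females and E1/E2-KO females. Over all genes the median was 1 in control males and 2 in the other lists for H3K27ac, and 2 in each list for H3K4me1. For genes with H3K27ac at the 5′ end in all 4 lists the medians were 2, 3, 3 and 3 for H3K27ac and 4, 4, 3 and 3 for H3K4me1.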

How the data were processed

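ChIP-seq for H3K27ac, H3K4me1 and H3K27me3 was done by the authors on 47 samples of individual livers. Paired-end reads of 50 nt were joined within each group and mapped to mm9 (Bowtie2, version 2.3.2). SICER (version 1.1, 400 bp windows, gaps of 2400 bp) was used for H3K27me3 and MACS2 (version 2.1.1, default settings) for the other marks. The 12 deposited lists have coordinates and names without any score, count or p-value, so peaks could not be ranked by strength and depth is unknown. Because peaks were called on joined reads, a peak may be missing because its signal fell below the caller's limit, and longer lists share more peaks with any other.

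Starts, which count from 0 in the lists, are given counting from 1 here, and 1 base was added to SICER ends. Genes were taken from GENCODE M1 on NCBIM37, which is mm9. A peak was kept when a peak of the other list overlapped it by at least 1 bp, and a change of coverage was counted from 25 percentage points. The 5′ end of a gene is the outermost end of its annotated span. All 8 genes are named. Other pathway genes were named when coverage changed by 25 points or H3K27ac at the 5′ end differed between genotypes of a sex, at most 10, the longest first, along with the 3 genes with the most similar peak counts. Some genes that these rules name are not reported here. The genes, lists and rules were chosen with earlier results of these data known. The functions were tested on simulated data with planted peaks. Alternatives were other windows, overlaps, widths and starts. Computation used SciPy 1.17.1, NumPy 2.4.6 and Matplotlib 3.10.9 under Python 3.11.15. The authors' comparison of replicate reads was not used here.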

Additional observations from a re-analysis of the deposited data

Results flagged for a closer look

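In 6 of 24 combinations of gene and mark, the E1/E2-KO value was above control in one sex and below it in the other. Over all autosomal genes this share was 12.9%, and over genes with H3K27ac at the 5′ end in all 4 lists it was 16.9%. By mark it was 1 of 8 for H3K27me3 (8.17% of all genes), 1 of 8 for H3K27ac (15.2%) and 4 of 8 for H3K4me1 (15.3%). Genes without peaks cannot differ in this way. The 8 genes have longer spans and more peaks by the median than all genes, so the shares are not like for like. With 1 list per group this difference between the sexes was not tested. H3K27ac peaks near Scd1 differed by 5 in males (3 and 8) and by -3 in females (8 and 5). H3K27me3 coverage of Acaca differed by 11.3 points in males and by -5.29 points in females. The other 4 concern H3K4me1 peaks. The difference was -5 in males and 1 in females at Scd1, -4 and 1 at Fasn, -1 and 1 at Srebf1, and 1 and -5 at Srebf2. For E1/E2-KO female H3K4me1, 3 livers are listed.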

How the results depend on the processing

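No paired analysis was possible because each group has 1 list of joined reads, and for the same reason no liver could be left out. Of the values under alternatives, 126 stayed within the Wilson interval of a share or within 1.5 times a count, and 30 moved. Among the 126 were 64 shares with 1 gene left out in turn, none of which moved beyond its interval. These shares reuse most of the same peaks, so they could hardly leave the interval and say little about stability. With equal numbers of the widest peaks, H3K27ac peaks kept in males were 78% and new ones 19.4%. New H3K27ac peaks in females were 4.17% within 10 kb of the 5′ end. With an overlap of 50% of the peak, kept peaks in females were 66.2% for H3K27ac and 38.9% for H3K4me1. Of the 8 genes, H3K27me3 overlapped 2 in control males with 3 kb added, and 4 in control males and 4 in control females with 10 kb added. At least 25% was covered in 0, 3, 0 and 1 gene of control males, E1/E2-KO males, control females and E1/E2-KO females, and at least 50% in 0, 2, 0 and 1. With the widest 50% of the regions the count was 3 in E1/E2-KO males, 1 in control females and 1 in E1/E2-KO females. A peak over the 5′ end itself was found for H3K27ac at 0, 1, 1 and 2 genes and for H3K4me1 at 0 genes in every list. Within 1 kb of any transcript start, H3K4me1 was found at 7 genes in control males and 2 in control females, and with equal numbers of the widest peaks at 2 in control males. These alternatives use fewer peaks, other windows or stricter overlaps by construction, and other causes were not tested. Depth is unknown and limits every count of missing peaks.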
